A study of Drosophila melanogaster with 4 samples.

Results

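The 10 genes Ldh, chk, GLaz, NLaz, Fatp1, mdy, Lsd-1, Lsd-2, bmm and Lip4 were chosen by name for their known parts in lactate and lipid exchange and in lipid droplets, out of 13997 genes listed in at least 1 library. RNA was sequenced from whole central nervous systems of Drosophila melanogaster larvae, 96 hours after the eggs were laid. In the 2 control samples (genotype repo-Gal4>mRFP) the glial driver repo-Gal4 expressed a red fluorescent protein, and in the 2 reprogrammed samples the same driver expressed constitutively activated forms of Egfr, a growth factor receptor, and of PI3K92E, the catalytic subunit of a lipid kinase. Each sample pooled 70 to 100 nervous systems, and all groups carried repo-Gal4, a yeast transcription factor placed under the control of regulatory DNA that is active in glia, the supporting cells of nervous tissue. The values therefore come from the whole tissue, glia and neurons together, and do not show which cells held a transcript. A higher or lower level can stem from more or fewer cells of a type or from more or less RNA per cell, which cannot be told apart here. Further genetic differences between the 2 fly lines, if any, cannot be told apart from the effect of the activated proteins.

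Glia break down sugar to pyruvate and lactate and can pass them to neurons through carriers for small organic acids. Lipids travel in the other direction in some settings: neurons under oxidative stress export lipids on apolipoprotein-like carriers, and glia store them as triglyceride in lipid droplets. Droplets are coated by perilipins, filled by acyltransferases and emptied by lipases, and droplets in glia of the larval brain are known to protect the neural stem cells they surround.

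Levels are in FPKM (fragments per kilobase, scaled to the number of fragments mapped), so levels of different genes can be set beside each other. A difference is the mean log2(FPKM + 1) of the reprogrammed libraries less that of the controls, a scale on which low genes appear to change less than they do. Each is given with its standard error and the Benjamini-Hochberg adjusted p from limma, a linear model fitted on all 9851 genes that reached 1 FPKM in at least 2 libraries (two-sided, n = 2 per group). All 10 genes passed that filter. The p-values cover the spread between pools of animals, part of which may be technical.

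Lip4 was the 1 gene of the 10 to pass the test, and it rose. None fell in limma, and at an unadjusted p under 0.05 the numbers were 4 higher (Ldh, GLaz, NLaz and Lip4) and 0 lower. Counted in either direction, that unadjusted threshold was reached by 3358 of all 9851 tested genes, so 4 of 10 is near that background. All 4 were higher, and the share of all tested genes that reached it as higher was not counted. Over all tested genes 12.2% passed, 4.11% as higher and 8.13% as lower, so 1 call among 10 genes is near the background. In 6 of the 10 genes both reprogrammed values lay above both control values, a pattern that 22.6% of all tested genes showed. In 2 genes both lay below, as in 40.8% of all tested genes, and in mdy and Lsd-1 the groups overlapped. The median change of the 10 genes was 0.75 against −0.25 over all tested genes. Scaling moved that overall median: it was 0.059 where libraries shared 1 median, −0.49 where they shared 1 sum and −0.037 after quantile normalization. Of all calls 33.6% were higher, and under these 3 scalings 57.2%, 20.1% and 59.7% were, and 60.0% once a trend on transcript length was taken out.

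**Figure D1:**
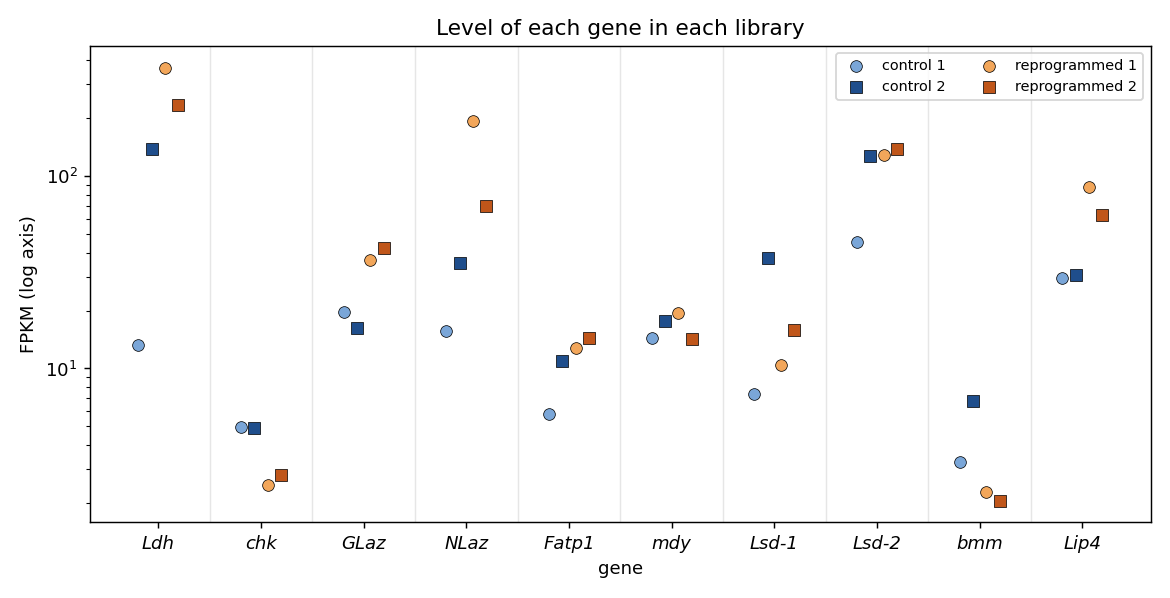
FPKM (log axis) of each of the 10 genes in the 2 control libraries (blue) and the 2 reprogrammed libraries (orange), 1 point per library. Ldh spans 13.2 to 365 FPKM, chk and bmm lie below 7 FPKM in every library, and control replicate 2 lies far above control replicate 1 in Ldh, Lsd-1 and Lsd-2.

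Depth was estimated for each library and gene. The steps between low FPKM values put 1 FPKM over 1 kilobase at 11.2 to 12.4 reads per library. The lowest value of the 10 genes, bmm in reprogrammed replicate 2, then stood for about 57 reads, with a counting SD of 13.3%, and the largest number of reads, about 7235 with a counting SD of 1.2%, was that of Lsd-2 in the same library. These cover counting error only. Between the controls 27.1% of tested genes differed by more than 2-fold, against 7.90% between the reprogrammed libraries. Of the 10 genes 5 differed by more than 2-fold between the controls (Ldh, NLaz, Lsd-1, Lsd-2 and bmm), in each case with control replicate 2 higher.

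Of the 2 lactate genes, Ldh was abundant and varied most between the controls of all 10 genes, while chk was low and even. Ldh (NCBI gene 45880) encodes lactate dehydrogenase, which turns pyruvate into lactate. It stood at 13.2 and 138.7 FPKM in control replicates 1 and 2 and at 365 and 232 FPKM in reprogrammed replicates 1 and 2. Both reprogrammed libraries were above both controls, but the controls themselves differed by 10.5-fold. The means were 75.9 ± 88.8 and 298.7 ± 94.2 FPKM (SD, n = 2), and the change of 2.71 ± 1.03 (95% interval 0.17 to 5.26, unadjusted) did not pass (limma adjusted p = 0.128). The size of this difference depended on which control was used: it was 1.06 without control replicate 1 (limma adjusted p = 0.0604) and 4.37 without control replicate 2 (0.0200). Ldh also passed without reprogrammed replicate 1 (2.39, limma adjusted p = 0.0141) or 2 (3.04, 0.000261). In those latter fits only the control pair gave a spread, and limma replaced each gene's own spread with that typical of its level.

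The step before Ldh in the pathway is pyruvate kinase, PyK, which makes pyruvate. PyK had 48.5 and 170.1 FPKM in the controls and 197 and 200.5 FPKM in the reprogrammed libraries, with a change of 1.12 ± 0.59 (limma adjusted p = 0.239). The ratio of Ldh to PyK within a library, which a common factor per library leaves as it is, was 0.27 and 0.82 in the controls and 1.85 and 1.16 in the reprogrammed libraries. The Ldh share of this pair was thus higher in both reprogrammed libraries than in either control. The within-library ratios here and below were chosen after their values were seen and have no test. How many other gene pairs separate the groups in this way was not counted.

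chk, or chaski (NCBI gene 35578), encodes a carrier that moves lactate and other monocarboxylates across the membrane. It was among the lowest of the 10 genes, at 4.99 and 4.92 FPKM in the controls and 2.47 and 2.79 FPKM in the reprogrammed libraries. The groups did not overlap and replicates lay close together, yet the change of −0.72 ± 0.31 (95% interval −1.49 to 0.056) did not pass (limma adjusted p = 0.170). With the trend on transcript length removed it was 0.082 (limma adjusted p = 0.863), so its sign followed that correction. The listed values of chk were identical in all 4 libraries to those of CG45092, whose annotated exons overlap those of chk on the same strand, so the reads of these genes cannot be told apart.

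The likeness of other genes to Ldh was measured as the Euclidean distance between log2(FPKM + 1) profiles over the 4 libraries, each centred on its mean. The nearest of all tested genes were CG10226 (distance 0.71), CG34136 (0.85) and snoRNA:Me18S-U1356b (0.89). CG10226 read 0.15 and 4.75 FPKM in the controls and 21.1 and 10.9 FPKM in the reprogrammed libraries. With 4 libraries such a list describes a shared order of values and no more.

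The 2 apolipoprotein D-like lipocalins, secreted proteins that bind small lipids, stood higher in both reprogrammed libraries, and neither passed. GLaz (NCBI gene 36447, Glial Lazarillo), named for its expression in glia, had 19.6 and 16.3 FPKM in the controls and 36.6 and 42.4 FPKM in the reprogrammed libraries. The replicates lay close, the groups did not overlap, and the change was 1.10 ± 0.28 (95% interval 0.40 to 1.796; limma adjusted p = 0.0578). It passed without control replicate 1 (1.22, limma adjusted p = 0.0210) or 2 (0.97, 0.0355) and not without reprogrammed replicate 1 (0.483) or 2 (0.501).

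NLaz (NCBI gene 33324, Neural Lazarillo), a lipocalin tied to stress resistance and metabolic control in flies, had 15.7 and 35.1 FPKM in the controls and 191.7 and 69.8 FPKM in the reprogrammed libraries. The groups did not overlap, but replicates differed by 2.23-fold in the controls and 2.75-fold in the reprogrammed pair. Its change of 2.25 ± 0.59 (95% interval 0.78 to 3.72) just missed the threshold (limma adjusted p = 0.0611). NLaz passed without control replicate 2 (2.80, limma adjusted p = 0.0438) or reprogrammed replicate 2 (2.97, 0.000544). It did not pass without control replicate 1 (1.69, 0.0961) or reprogrammed replicate 1 (1.53, 0.305). The ratio of NLaz to GLaz ranged from 0.80 to 2.15 in the controls and from 1.65 to 5.24 in the reprogrammed libraries, so the groups overlapped in it.

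Fatp1 (NCBI gene 26067068) encodes a fatty acid transport protein, which takes up fatty acids and couples them to coenzyme A. It had 5.78 and 10.97 FPKM in the controls and 12.8 and 14.5 FPKM in the reprogrammed libraries. Both reprogrammed values were higher, though control replicate 2 came close to them. The change of 0.70 ± 0.39 (95% interval −0.26 to 1.66) did not pass (limma adjusted p = 0.263). Its size followed the processing, from 0.44 on a common sum (limma adjusted p = 0.510) to 1.23 without the length trend (0.0538). It was 0.29 without control replicate 1 (limma adjusted p = 0.302) and 1.11 without control replicate 2 (0.0312).

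mdy, or midway (NCBI gene 44887), encodes diacylglycerol acyltransferase, which makes the triglyceride of lipid droplets. Its values were 14.4 and 17.7 FPKM in the controls and 19.4 and 14.2 FPKM in the reprogrammed libraries. This was the narrowest range among the 10 genes relative to its level, with overlapping groups. The change was 0.059 ± 0.32 (limma adjusted p = 0.915), with a 95% interval of −0.74 to 0.85. Its sign was negative on a common sum (−0.20), without control replicate 1 (−0.082) and without reprogrammed replicate 1 (−0.15).

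Of the 2 perilipins, Lsd-2 was the more abundant in every library. Lsd-2 (NCBI gene 32437) coats droplets and protects stored fat from lipases, and stood at 45.5 and 126.7 FPKM in the controls and 129.2 and 138.3 FPKM in the reprogrammed libraries. Control replicate 2 was within a few FPKM of the lower reprogrammed library, and control replicate 1 lay far below. The change was 0.81 ± 0.50 (95% interval −0.43 to 2.04; limma adjusted p = 0.311). It was 0.53 on a common sum (limma adjusted p = 0.518) and 1.54 without the length trend (0.0890). Without control replicate 1 it was 0.077 (limma adjusted p = 0.730), and without control replicate 2 it was 1.54 (0.0203).

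Lsd-1 (NCBI gene 42810) is the perilipin that regulates hormone-stimulated fat breakdown and is best known from fat body, the storage tissue of insects. It had 7.33 and 37.6 FPKM in the controls and 10.4 and 15.8 FPKM in the reprogrammed libraries. Both reprogrammed values lay between the controls, which differed by 5.12-fold. The change of −0.37 ± 0.73 did not pass (limma adjusted p = 0.758). It was −1.48 without control replicate 1 (limma adjusted p = 0.0279) and 0.73 without control replicate 2 (0.148), so control replicates 1 and 2 alone gave opposite signs. A stretch of Lsd-1 exons overlaps CG10214 on the opposite strand, and no step that marks strand is described, so those reads cannot be told apart. The ratio of Lsd-2 to Lsd-1 within a library was 6.20 and 3.37 in the controls and 12.4 and 8.74 in the reprogrammed libraries, higher in both of the latter.

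The 2 lipases stood on opposite sides. Lip4 (NCBI gene 34450), a lipase of the acid lipase family known in flies as a target of the insulin-regulated factor foxo, rose from 29.4 and 30.5 FPKM in the controls to 87.7 and 62.9 FPKM in the reprogrammed libraries. The controls were nearly equal and both reprogrammed libraries were well above them. The means were 29.99 ± 0.77 and 75.3 ± 17.5 FPKM (SD, n = 2), a ratio of means of 2.51, and the change was 1.28 ± 0.29 (95% interval 0.56 to 1.998; limma adjusted p = 0.0464). Relative to the median of all tested genes it was 1.53. With no filter on low values no gene of the whole data was called, as the smallest limma adjusted p in that fit was 0.0843. Lip4 did not pass where libraries shared 1 summed FPKM (1.010, limma adjusted p = 0.0714), nor under quantile normalization (0.0612), without the length trend (0.0653), with no filter on low values (0.0880) and without reprogrammed replicate 1 (1.04, 0.531) or 2 (1.52, 0.183).

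bmm, or brummer (NCBI gene 39611), encodes the fly counterpart of adipose triglyceride lipase, the main enzyme that empties lipid droplets. It had 3.25 and 6.74 FPKM in the controls and 2.29 and 2.06 FPKM in the reprogrammed libraries. Both reprogrammed values were lower, and the controls differed by 2.07-fold. The change of −0.85 ± 0.40 (95% interval −1.85 to 0.14) did not pass (limma adjusted p = 0.197). It was −1.29 without control replicate 1 (limma adjusted p = 0.0241) and −0.42 without control replicate 2 (0.256). Within a library Lip4 stood at 9.06 and 4.53 times the level of bmm in the controls and at 38.3 and 30.5 times in the reprogrammed libraries. The ratio of mdy to bmm was 4.42 and 2.62 in the controls and 8.49 and 6.90 in the reprogrammed libraries. In both ratios the groups did not overlap, though neither mdy nor bmm passed on its own.

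**Figure D2:**
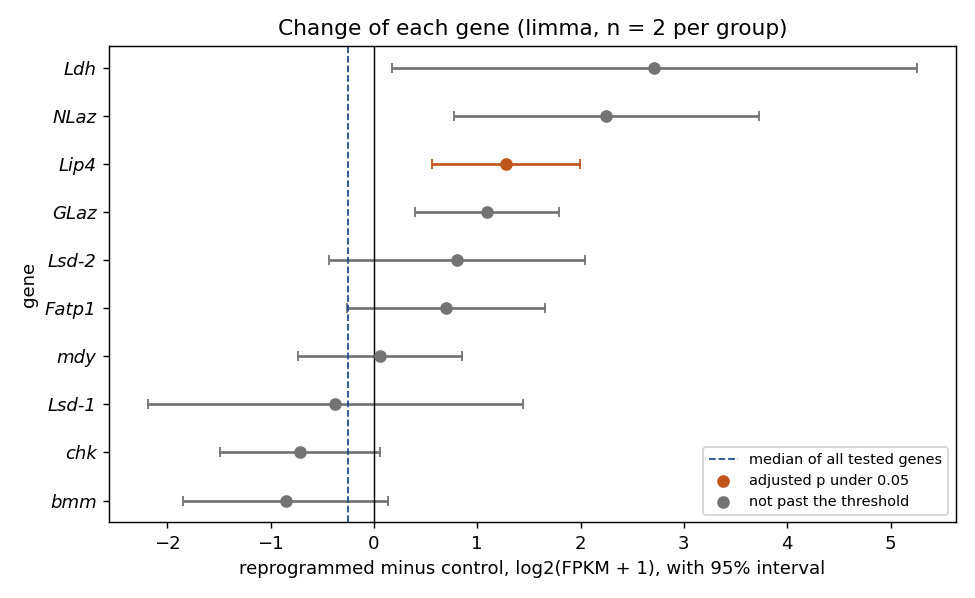
Change of each gene between the groups (reprogrammed minus control, in log2(FPKM + 1)), with its unadjusted 95% interval from limma (n = 2 per group), and the median of all tested genes at −0.25 (dashed). The interval of Ldh, 0.17 to 5.26, is the widest, and Lip4 is the 1 gene with an adjusted p under 0.05.

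The order of the 10 genes by level differed between the groups. By mean FPKM the controls had Lsd-2 first (86.1) and Ldh second (75.9), followed by Lip4, NLaz, Lsd-1, GLaz and mdy between 29.99 and 16.0, then Fatp1 (8.38), bmm (4.995) and chk (4.96). In that order, the library values of neighbours did not overlap only between mdy and Fatp1. In the reprogrammed libraries Ldh came first (298.7), separate from Lsd-2 (133.7), which overlapped with NLaz (130.8). Lip4 (75.3) and GLaz (39.5) followed, each separate from the next gene. The next genes, mdy (16.8), Fatp1 (13.6) and Lsd-1 (13.1), overlapped from neighbour to neighbour, and chk (2.63) and bmm (2.17) came last without overlap. NLaz and Lip4 overlapped in both groups.

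**Figure D3:**
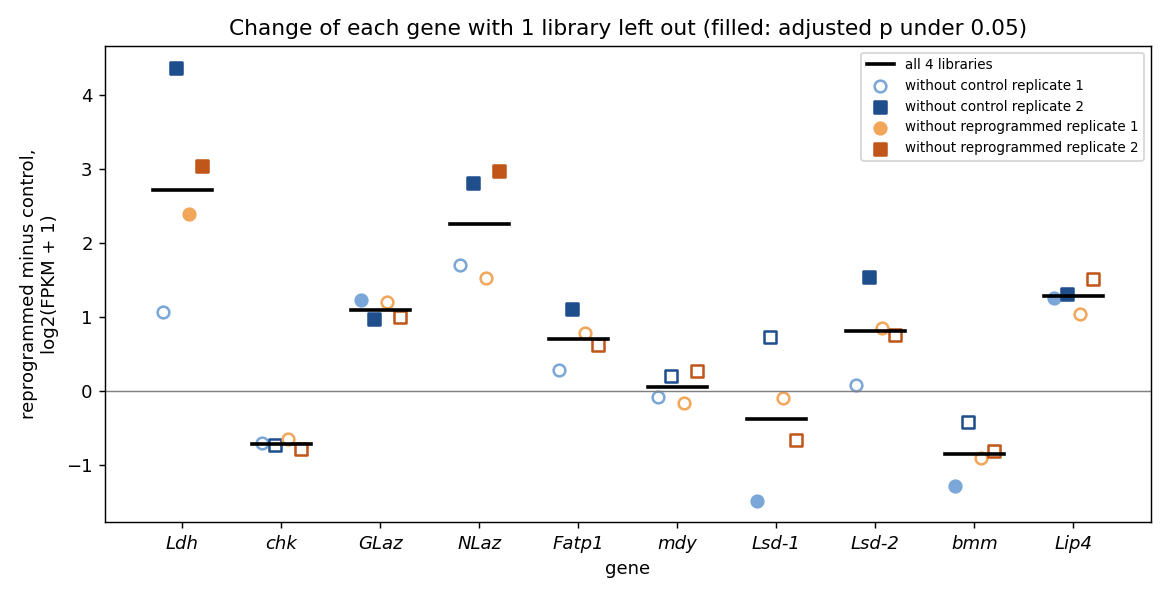
Change of each gene between the groups (reprogrammed minus control, in log2(FPKM + 1)), with all 4 libraries (black line) and with 1 library left out (symbols, filled where the limma adjusted p is under 0.05). The changes of Ldh, Lsd-1 and Lsd-2 spread most with the control left out, from 1.06 to 4.37, −1.48 to 0.73 and 0.077 to 1.54, while those of chk, GLaz and Lip4 stay close to the line.

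Leaving out control replicate 2 gave 6 higher genes (Ldh, GLaz, NLaz, Fatp1, Lsd-2 and Lip4) and 0 lower, where 12.4% of all genes were called higher and 16.7% lower. Leaving out control replicate 1 gave GLaz and Lip4 higher and Lsd-1 and bmm lower, where 12.8% and 33.6% of all genes were called. Without reprogrammed replicate 1 only Ldh was called, and without reprogrammed replicate 2 Ldh and NLaz were (background 1.84% and 2.83% higher). Here the remaining library of the reduced group is taken to vary as the other pair does. With the replicate number as a block, Ldh, GLaz, NLaz and Lip4 were called higher, beside 8.85% of all genes, and none lower (19.4%). In that block fit, too, limma replaced each gene's own spread with that typical of its level.

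Markers of cell types differed between the groups as well. Of 14 glial markers 8 rose and none fell, with a median change of 1.64, and their summed level went from 873 and 1178 FPKM in the controls to 3571 and 3346 FPKM in the reprogrammed libraries. All 12 neuron markers fell (median −1.79) and 4 of 6 neural stem cell markers did (median −2.05). Set against repo, the glial transcription factor whose regulatory sequence drives Gal4 (12.4 and 23.7 FPKM in the controls, 60.7 and 51.5 FPKM in the reprogrammed libraries), GLaz, NLaz, Ldh and Lip4 overlapped between the groups. The ratio of Lip4 to repo was 2.37 and 1.29 in the controls and 1.45 and 1.22 in the reprogrammed libraries, and that of GLaz to repo 1.58 and 0.69 against 0.60 and 0.82. The change of repo itself, 1.64, exceeded that of 96.1% of all tested genes, so most genes fell relative to repo. How many of all genes had lower ratios to repo in both reprogrammed libraries was not counted. The ratios of the other 6 genes to repo were lower in both reprogrammed libraries than in either control. For Lsd-2 they were 3.66 and 5.34 against 2.13 and 2.69, and for Fatp1 0.47 and 0.46 against 0.21 and 0.28. For mdy they were 1.16 and 0.74 against 0.32 and 0.28.

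Markers of other tissues that a dissected nervous system can carry also differed between the controls, in both directions. Muscle and fat body sums were higher in control replicate 2, and blood cell and ring gland sums were lower. Of the 10 genes 8 were higher in control replicate 2, and so were 10 of 14 glial markers. The 9 muscle markers summed to 98.5 FPKM in control replicate 1 and 510 FPKM in control replicate 2, and to 48.0 and 147 FPKM in reprogrammed replicates 1 and 2. The 10 fat body markers summed to 253, 1471, 609 and 878 FPKM in the same order. Within that list the storage protein gene Lsp1beta read 14.3, 801, 1.15 and 45.9 FPKM, while Adh, alcohol dehydrogenase, made up most of the sum in reprogrammed replicate 1 at 536 FPKM. LManVI was unlisted or 0 in 3 libraries and read 0.03 FPKM in the remaining one. Of the muscle markers 8 of 9, and of the fat body markers 7 of 10, had the higher value in control replicate 2. Blood cell markers summed to 783, 437, 350 and 572 FPKM in control replicates 1 and 2 and reprogrammed replicates 1 and 2, though 8 of 10 were higher in control replicate 2. Ring gland markers summed to 1153, 612, 537 and 486 FPKM, with 1 of 7 higher in control replicate 2. Trachea and cuticle markers summed to 286, 439, 90.1 and 106 FPKM, with 6 of 8 higher in control replicate 2. In limma 4 of 8 trachea and cuticle markers, 1 of 10 blood cell markers and 1 of 9 fat body markers fell. No muscle or ring gland marker passed, with 0 of 8 and 2 of 7 lower at an unadjusted p under 0.05. The part of these tissues in the levels of the 10 genes was not tested.

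**Figure D4:**
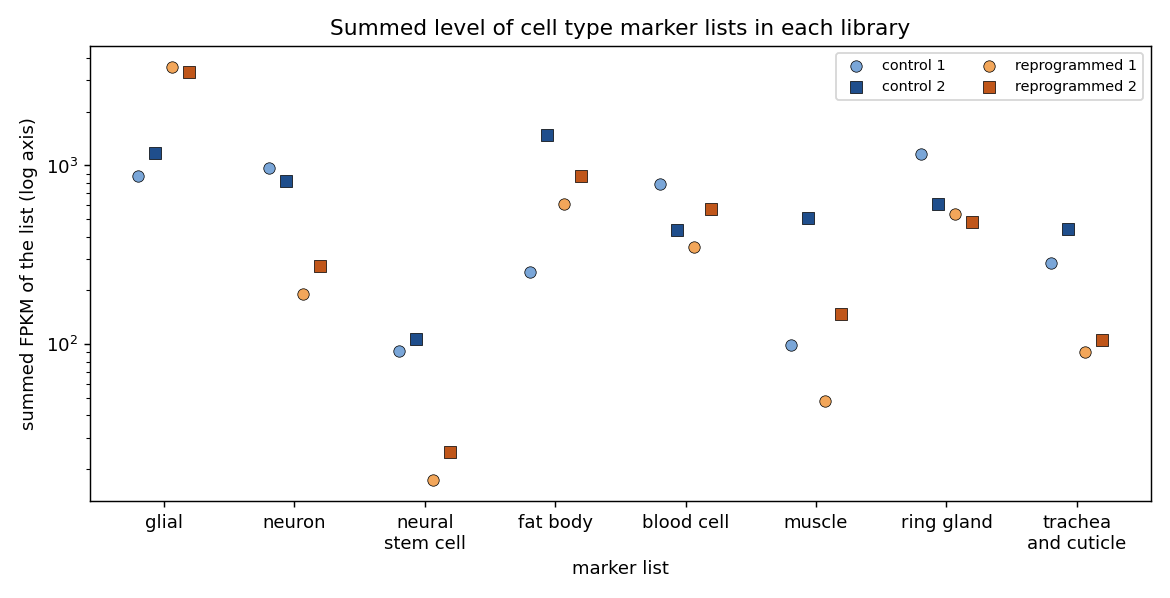
Summed FPKM (log axis) of each cell type marker list in the 2 control libraries (blue) and the 2 reprogrammed libraries (orange). Glial markers are higher and neuron and neural stem cell markers lower in both reprogrammed libraries, and muscle and fat body sums are highest in control replicate 2.

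Around the 10 genes, 9 lists of lactate, glucose and lipid genes held 92 further tested genes, of which 3 rose, 2 fell and 87 did not pass. Their median change was 0.26, against −0.25 for all tested genes, and, whether called or not, 57 changed by more than 0 and 35 by less. With 5 calls the share was below the 12.2% of all tested genes. At an unadjusted p under 0.05 there were 14 higher and 8 lower, where 3358 of all 9851 tested genes reached it in either direction. With no filter on low values no gene of the whole data was called (smallest limma adjusted p = 0.0843). A call lost in that fit therefore sets no gene apart. Which library was left out moved the counts of called genes, as it moved the share called over all tested genes.

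Among 18 genes of lactate and pyruvate handling, Ldh and chk included, none passed in limma, and at an unadjusted p under 0.05 there were 2 higher and 1 lower (median 0.33). Pdha, a subunit of the pyruvate dehydrogenase that feeds pyruvate into mitochondria, had 70.0 ± 34.7 FPKM in the controls and 84.0 ± 11.8 in the reprogrammed libraries (0.34 ± 0.40, limma adjusted p = 0.593). Sln and out, further carriers of the monocarboxylate family chosen after their values were seen, stood on opposite sides. Of the same family, the more abundant kar and hrm changed by 0.50 ± 0.37 (limma adjusted p = 0.386) and 0.31 ± 0.28 (0.491). Mct1 changed by −0.33 ± 0.42 (limma adjusted p = 0.625). Sln, or Silnoon, had 2.70 and 5.09 FPKM in the controls and 0.60 and 0.74 FPKM in the reprogrammed libraries (−1.51 ± 0.37, limma adjusted p = 0.0524), and out, or outsiders, had 1.48 and 2.16 against 5.42 and 3.99 FPKM (1.02 ± 0.34, limma adjusted p = 0.0990).

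Of 8 tested genes of glucose supply, Glut1, which encodes a glucose transporter, fell from 47.5 and 31.1 FPKM in the controls to 9.71 and 11.51 FPKM in the reprogrammed libraries. Its change was −1.77 ± 0.33 (limma adjusted p = 0.0383). Glut1 did not pass where libraries shared 1 median (0.0719), under quantile normalization (0.0649), without the length trend (−0.82, 0.156), with no filter (0.0843) and without reprogrammed replicate 1 (0.273) or 2 (0.105). The glycolytic genes Pfk, phosphofructokinase, and Pgi, glucose phosphate isomerase, had changes of 1.57 ± 0.47 (limma adjusted p = 0.0766) and 0.90 ± 0.73 (0.437).

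Of 16 tested lipocalins and lipid carriers, 1 rose and 1 fell (median 0.41). Npc2a, a Niemann-Pick protein that carries sterols in lysosomes, rose from 98.9 and 116.7 FPKM to 540 and 516 FPKM. Its change was 2.29 ± 0.27 (limma adjusted p = 0.0297). Its call was lost with no filter on low values (0.0843), where no gene was called, and kept in the other 11 fits. The scavenger receptor gene emp fell from 12.3 and 19.2 FPKM to 2.67 and 4.98 FPKM (−1.81 ± 0.41, limma adjusted p = 0.0474). Its call was lost after quantile normalization (0.0563), with a pseudocount of 0.1 (0.0504), with no filter (0.102) and without control replicate 2 (0.0508), reprogrammed replicate 1 (0.437) or 2 (0.105). apolpp, the precursor of the main lipoproteins of fly blood, had 15.4 and 70.4 FPKM in the controls and 59.7 and 40.3 FPKM in the reprogrammed libraries (0.55 ± 0.70, limma adjusted p = 0.622).

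The most abundant gene of any list was fabp, a fatty acid binding protein that moves fatty acids inside cells. It read 14222 and 5157 FPKM in the controls and 31699 and 36927 FPKM in the reprogrammed libraries, or 1.83% and 0.73% against 3.54% and 4.14% of each library's summed FPKM. Both reprogrammed libraries were above both controls, and the change of 1.998 ± 0.76 did not pass (limma adjusted p = 0.131). Of 9 tested genes of fatty acid uptake and activation, 1 rose (median 0.67). This was Acbp2, an acyl-CoA binding protein, from 63.2 and 70.6 FPKM to 254 and 293 FPKM (2.01 ± 0.26, limma adjusted p = 0.0308), whose call was lost with no filter (0.0843) and without reprogrammed replicate 2 (0.0623). Its paralog Acbp1 had 517 ± 282 and 763 ± 56.9 FPKM (0.67 ± 0.46, limma adjusted p = 0.3503).

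Of 7 tested genes of triglyceride and phosphatidate synthesis, mdy included, Agpat2 rose. It encodes an acyltransferase that makes phosphatidate, an early step towards triglyceride and membrane lipids, and went from 24.2 and 20.3 FPKM to 66.2 and 72.0 FPKM (1.59 ± 0.27, limma adjusted p = 0.0340). The call was lost after quantile normalization (0.0507), with no filter (0.0843) and without reprogrammed replicate 1 (0.254) or 2 (0.192). Gpat4, which catalyses the step before it, had 89.7 ± 21.6 and 107.5 ± 3.64 FPKM (0.28 ± 0.29, limma adjusted p = 0.542), and Agpat3 had 46 ± 8.24 and 63.8 ± 9.40 FPKM (0.47 ± 0.29, 0.308). Dgat2, a further acyltransferase gene for triglyceride, was unlisted or 0 in both controls. It read 0.14 and 0.07 FPKM in the reprogrammed libraries, so mdy supplied nearly all the level of this pair.

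None of the 12 genes of droplet coat and assembly passed in limma, with 2 higher and 1 lower at an unadjusted p under 0.05 (median −0.03). Rab18, a small GTPase found on droplets, had 74.7 ± 36.6 and 130.4 ± 28.8 FPKM (0.87 ± 0.42, limma adjusted p = 0.204), and sturkopf, a droplet-associated enzyme, had 43.3 ± 14.8 and 44.1 ± 6.46 FPKM (0.060 ± 0.34, 0.917). Of 7 tested lipases only Lip4 passed. Hsl, hormone-sensitive lipase, had 11.8 and 12.4 FPKM in the controls and 6.18 and 6.55 FPKM in the reprogrammed libraries (−0.83 ± 0.31, limma adjusted p = 0.123), and sws, a phospholipase gene of neurons and glia, had 23.5 ± 2.56 and 16.4 ± 1.68 FPKM (−0.49 ± 0.29, 0.287). The lipase genes Lip1, Lip2, Lip3 and mag stayed at or below 0.51 FPKM in every library.

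No gene of fatty acid synthesis (9 tested, median 0.10) or fatty acid oxidation (17 tested, median 0.37) passed in limma. At an unadjusted p under 0.05 there were 0 higher and 1 lower in synthesis and 3 higher and 1 lower in oxidation. Desat1, the main fatty acid desaturase, had 202.5 ± 101.8 and 286 ± 15.6 FPKM (0.59 ± 0.41, limma adjusted p = 0.363), and the elongase gene Baldspot had 112 ± 18.6 and 82.7 ± 4.04 FPKM (−0.43 ± 0.27, 0.321). The mitochondrial oxidation gene scu had 144 ± 40.3 and 297 ± 65.9 FPKM (1.05 ± 0.34, limma adjusted p = 0.0897), and wal, a subunit of the electron carrier that serves oxidation, had 116 ± 6.79 and 179 ± 43.4 FPKM (0.60 ± 0.29, 0.212).

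**Figure D5:**
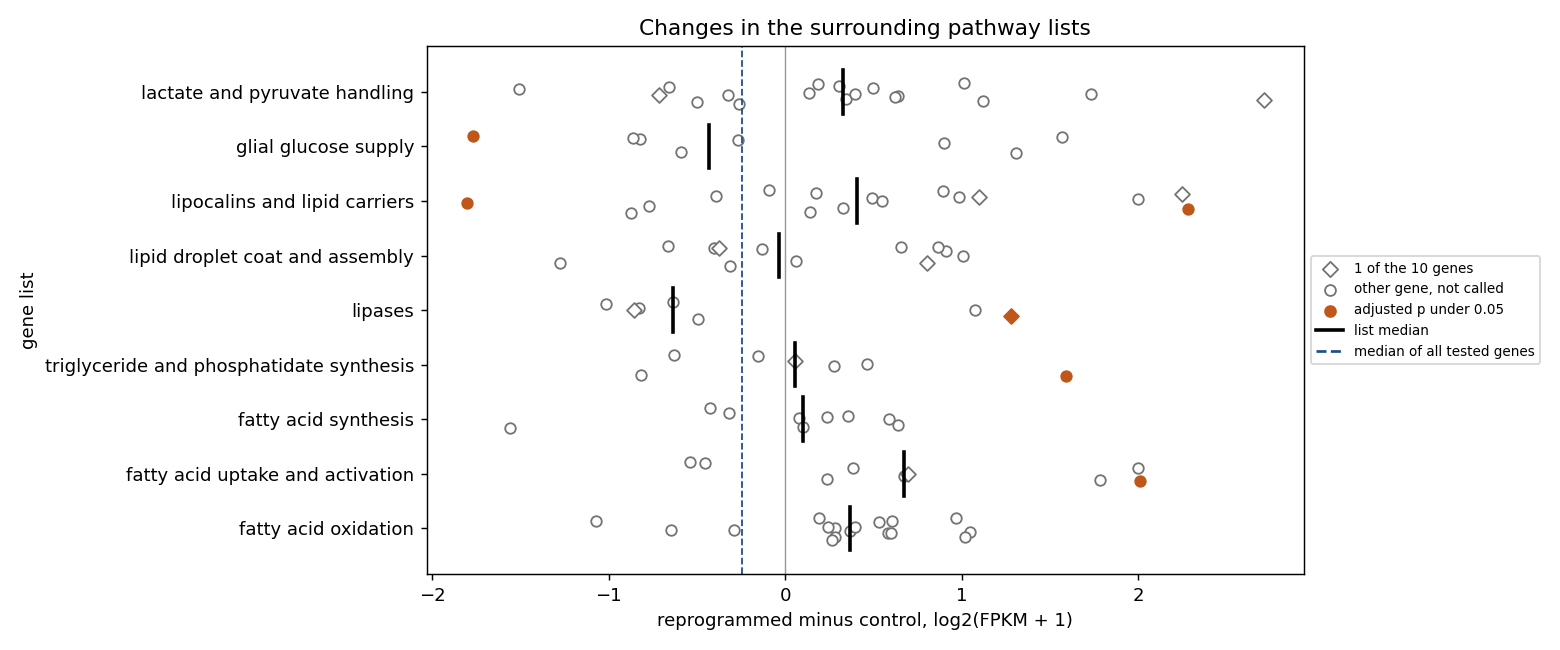
Change of each tested gene in 9 lists of lactate, glucose and lipid genes (reprogrammed minus control, in log2(FPKM + 1)), with list medians (black) and the median of all tested genes at −0.25 (dashed). Filled symbols have a limma adjusted p under 0.05, and diamonds are the 10 genes described above, of which Lip4 at 1.28 is the filled one.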

How the data were processed

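The authors deposited 1 table of FPKM values per sample, rounded to 2 decimals, per the file headers. Polyadenylated RNA was captured on oligo(dT) and copied from random primers, per the labels' protocols, with no step named that marks strand. The submitters' processing notes name Bowtie2 and HISAT. Which versions, quantifier and genome build were used is not given in the sources used here. No coordinates are printed for that reason. A gene missing from a table was set to 0. Since FPKM is relative to the total, the most abundant genes can move the values of the rest.

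Groups came from the sample titles. Names came from a RefSeq gene table (Release 6 plus ISO1 MT): 13960 of 13997 genes were named by gene number and 2 by transcript. GLaz was matched through its synonym Glaz. Transcript lengths and exon overlaps came from an Ensembl BDGP6 annotation. Of the names written in the gene lists, 198 matched a symbol, 9 a synonym and 5 nothing. The 10 genes, the lists and the rules were chosen with earlier results of these data known. Genes named from each list were up to 4 called genes of largest change and up to 2 uncalled genes of highest FPKM. Others are said to be chosen after seeing their values.

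limma (lmFit, eBayes with a mean-variance trend) was run on log2(FPKM + 1) with group as the only term, with 2 residual and 3.72 prior degrees of freedom, and genes were called at a Benjamini-Hochberg adjusted p below 0.05. The script was tested on simulated data. FPKM are not counts, so no count-based test was run. Depth was estimated from single-transcript genes over 600 bases. Between 93.8% and 94.9% of their low values came out as whole reads with a tolerance of 0.15 reads, against 30% by chance, and approximate reads per gene use the longest annotated transcript. Alternatives were scaling to a common median or sum, quantile normalization, a filter of 5 FPKM or none, a pseudocount of 0.1, a minimum log2 change of 1, the replicate number as a block, a loess correction for transcript length (span 0.5) and each library left out. Promoter motifs were not analysed here. limma was version 3.58.1 under R 4.3.3. Tables and plots used pandas 2.3.3, numpy 2.4.6, matplotlib 3.10.9 and scipy 1.17.1 under Python 3.11.15.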

Additional observations from a re-analysis of the deposited data

How the results depend on the processing

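The number of the 10 genes called higher by limma was 1 on all libraries. It was 0 on a common sum of FPKM, under quantile normalization, without the length trend and with no filter on low values. At an unadjusted p under 0.05 the numbers were 3, 4, 6 and 3 in that order. In the same order 3505, 3118, 2883 and 3629 of 9851, 9851, 9839 and 13997 tested genes reached that p in either direction. The numbers for the 10 genes cover the higher direction only, for which the share of all tested genes was not counted. With no filter no gene of the whole data was called. The number called higher was 1 on a common median, with a filter of 5 FPKM, which leaves out chk and bmm, with a pseudocount of 0.1 and with a log2 change of at least 1. It ranged from 1 to 6 with 1 library left out, and the number called lower, 0 on all libraries, from 0 to 2. Of the 92 surrounding genes 3 were called higher and 2 lower. On a common median 7 were higher, and after quantile normalization 0 were lower (7 at an unadjusted p under 0.05). With 1 library left out the higher ones ranged from 2 to 28 and the lower ones from 0 to 22. Signs changed for chk with the length trend removed (0.082), for mdy on a common sum (−0.20), for mdy with 1 library left out (−0.15 to 0.27) and for Lsd-1 with 1 library left out (−1.48 to 0.73). Causes were not tested. Replicates share only a number: the replicate differences of the groups correlated at −0.03 across genes. With the replicate number as a block, 4 of the 10 genes were higher (Ldh, GLaz, NLaz and Lip4), as were 11 surrounding genes, with 5 lower. The background was 8.85% higher and 19.4% lower. That fit had 1 residual degree of freedom, and limma replaced each gene's own spread with that typical of its level. With 2 pooled samples per group, replicate ratios reached 10.5-fold between the controls (Ldh) and 2.75-fold between the reprogrammed libraries (NLaz), against counting SDs of at most 13.3%.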

Other observations

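Alcohol dehydrogenase, Adh, listed here among fat body markers, had a profile ordered like that of Ldh. It read 5.97 and 70.8 FPKM in the controls and 536 and 357 FPKM in the reprogrammed libraries, with a gap of 11.9-fold between the controls and a change of 4.29 ± 1.04 (limma adjusted p = 0.0524). Both enzymes use the NAD cofactor, but a link between their levels was not tested. The larval storage protein gene Lsp1beta of the same list had a difference of −3.46 ± 2.16 (limma adjusted p = 0.314). These genes were chosen after their values were seen.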
